A study of Homo sapiens with 6 samples.

Results

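The genes described here are the PEA3-type ETS transcription factor genes ETV1, ETV4 and ETV5, the Sprouty genes SPRY1, SPRY2 and SPRY4, the Spred genes SPRED1, SPRED2 and SPRED3, and PHLDA1. They are 10 of the 56303 gene entries in the table of read counts and were taken by gene name. The members were selected on this study's own difference between SRSF2-depleted and WT cells, so the levels and differences of these 10 genes are given as a description. Where a member is said to be called or not, that reports the fit over all genes for the comparison that chose it and is no test of the member. The study measured RNA in AGS, a long-established line from a human gastric cancer, kept in DMEM/F12 medium with fetal bovine serum. It compared 3 libraries of cells transfected with a small interfering RNA against SRSF2 (siSRSF2, genotype label SRSF2 knockdown) with 3 libraries of cells labelled WT. SRSF2 encodes a serine/arginine-rich splicing factor. The labels do not state the siRNA sequence, the time after transfection, whether WT cells were given a control siRNA or whether replicates were separate cultures, so the spread between libraries may be technical.

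ERK, the last kinase of the cascade that runs from receptor tyrosine kinases through RAS, RAF and MEK, switches on a small group of genes that report its activity. The PEA3 factors are activators in this group and are held down by the repressor Capicua (CIC) when ERK is inactive. Sprouty and Spred proteins are induced inhibitors that act back on the cascade, Spred proteins by bringing the RAS inactivator neurofibromin to the membrane. PHLDA1 encodes a protein with a pleckstrin-homology-like domain and is commonly read with them as an ERK output gene.

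WT libraries held from 47518943 to 50021152 counts and the shallower siSRSF2 libraries from 26610937 to 36651623. Levels are given as CPM, counts scaled to a library of 1000000 after TMM scaling of the library sizes, and 3 counts corresponded to between 0.0630 and 0.110 CPM in a library. Among counts of 1 to 20, between 75.8% and 79.1% were even numbers in each library. Whether both reads of a pair were counted was not tested, and the counts carry no molecular identifiers. The targeted gene SRSF2 was at 44.5, 46.4 and 44.1 CPM in WT and at 21.6, 21.8 and 24.9 CPM in siSRSF2 libraries, without overlap. Of the labelled cell type's markers, KRT8 and KRT18 were abundant (2680 CPM or more and 990.3 CPM or more in every library) while EPCAM lay between 4.59 and 6.12 CPM and KRT19 between 2.91 and 3.57 CPM. KRT8 was called lower (log2 fold change -0.22, edgeR adjusted p = 0.00018), and CLDN4 was called 3.46-fold higher, at 1.45 ± 0.335 CPM in WT and 4.99 ± 0.974 CPM in siSRSF2 libraries. Summed over 3 fibroblast markers the level was 20.4 to 20.9 CPM in WT and 45.2 to 49.9 CPM in siSRSF2 libraries, over 3 leukocyte markers 23.3 to 24.9 and 23.95 to 26.6 CPM, nearly all of it CD68 (CD3E was at 0 in 5 of 6 libraries and PTPRC at 0.259 CPM or less), and over 3 endothelial markers 3.01 to 3.24 and 0.96 to 1.96 CPM. All 3 fibroblast markers were called higher and the 2 endothelial markers tested were called lower. The part of these signals in the results was not tested. In bulk RNA, fewer cells expressing a gene and less RNA per cell cannot be told apart.

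ETV4, ETV5, SPRED1, SPRED2 and PHLDA1 were at 2.11-fold or more lower levels in siSRSF2 cells. SPRY2 and SPRY4 were lower by smaller amounts, and SPRY1, ETV1 and SPRED3 had higher mean levels. In the edgeR quasi-likelihood fit over all 23689 tested genes, 5 of the 10 were called lower, at an adjusted p of 0.05, where 29.0% of all genes were. SPRED3 alone was called higher, where 30.1% of all genes were, and ETV1, SPRY1, SPRY2 and SPRY4 were not called. In either direction 59.1% of all genes were called. The groups did not overlap in 6 members with lower values (31.2% of all genes) and in 1 with higher values (32.5%), and did not overlap in either direction in 63.8% of all genes. The median log2 fold change of the 10 genes was -0.95, beside 0.02 over all genes tested. All 10 passed the filter on low counts, ETV5 through its WT libraries (counts of 6, 8 and 10 in siSRSF2 libraries). ETV1, SPRY2 and SPRY4 did not reach the mean of 1 CPM that an alternative filter required. Since the set was drawn up from this comparison, nothing is read from these shares.

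**Figure D1:**
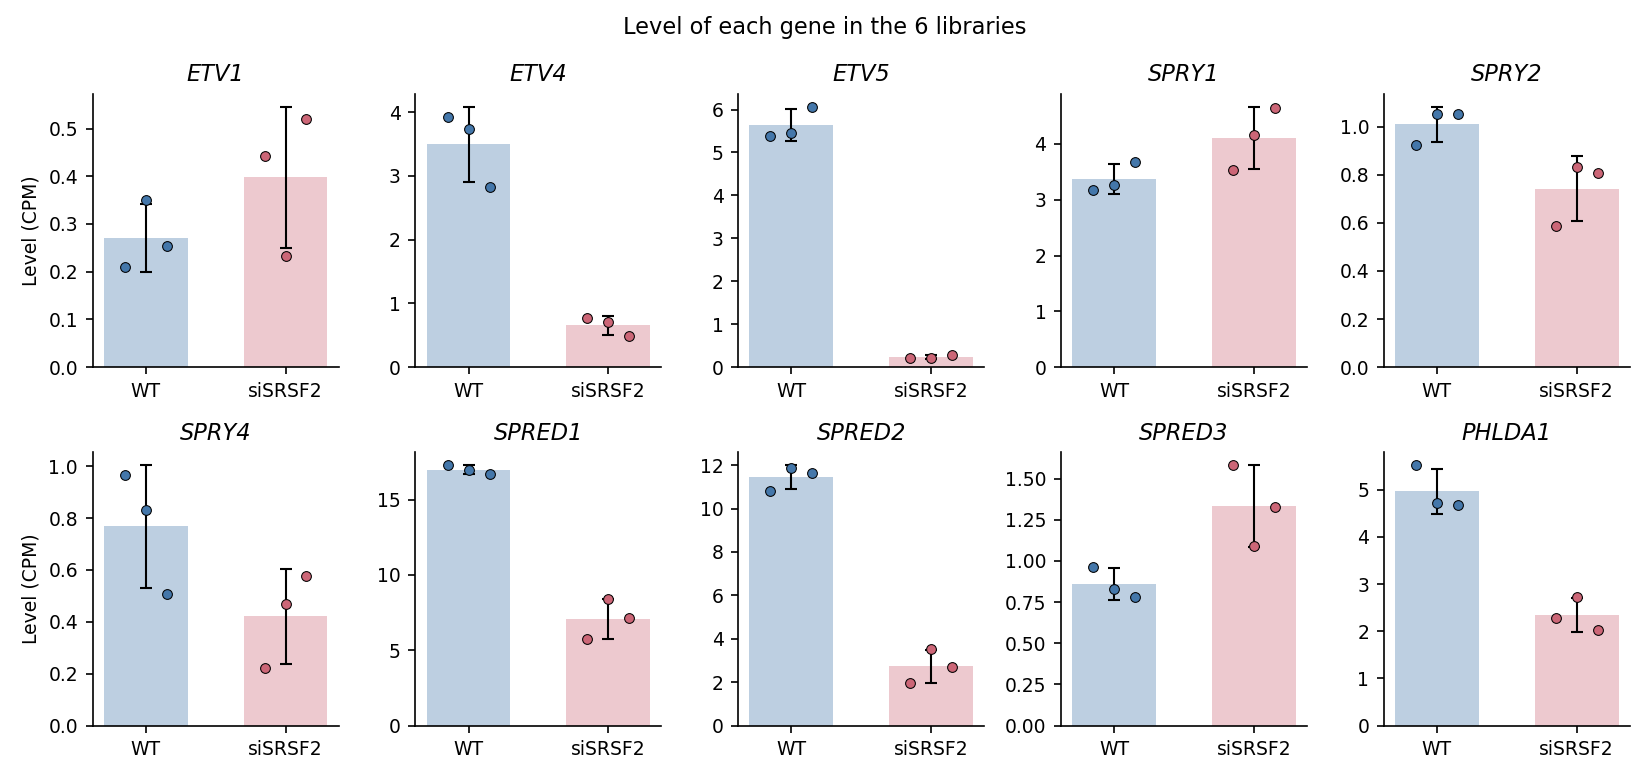
Level in CPM (vertical axes, each starting at 0) of the 10 genes in 3 WT and 3 siSRSF2 libraries. Points are libraries, bars are group means and error bars are SDs (n = 3). ETV5 sits at 5.39 CPM or more in WT and at 0.289 CPM or less in siSRSF2 libraries, whereas SPRY1, SPRY4 and ETV1 overlap between the groups.

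ETV5 (chr3:186046308-186110318, minus strand, GRCh38) had the lowest fold change of the set. Its level was 5.39, 5.45 and 6.07 CPM in WT libraries and 0.221, 0.208 and 0.289 CPM in siSRSF2 libraries, from counts of 257, 249 and 288 against 6, 8 and 10. Every siSRSF2 library lay far below every WT library, and the difference was 23.3-fold (log2 fold change -4.54, SE 0.224). Ordered from the lowest fold change, ETV5 stood at rank 5 among the 23689 genes tested.

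ETV4 (chr17:43527844-43579620, minus strand), the founding PEA3 gene, was at 3.92, 3.74 and 2.82 CPM in WT and at 0.773, 0.701 and 0.491 CPM in siSRSF2 libraries. WT replicate 3 was lower than the other WT libraries but still well above all siSRSF2 libraries. The difference was 5.36-fold (log2 fold change -2.42, SE 0.226), and 0.224% of all tested genes had a lower fold change.

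ETV1 (chr7:13891228-13991425, minus strand), the third PEA3 gene, had low counts in both groups. It had 10, 16 and 12 counts in the WT libraries against 12, 9 and 18 after SRSF2 depletion, or 0.210, 0.350 and 0.253 CPM against 0.442, 0.234 and 0.520 CPM. The groups overlapped, and the log2 fold change of 0.54 carried an SE of 0.471. ETV1 was not called, and whether depth or the spread between libraries limited this was not tested.

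The 3 PEA3 genes are paralogs, so the likeness of their coding sequences was checked. Over aligned coding bases of the longest GENCODE release 29 coding sequences, identity was 70.5% between ETV4 and ETV5, 70.2% between ETV1 and ETV5 and 67.9% between ETV1 and ETV4. The longest exactly shared coding run was 33 bases, between ETV4 (chr17:43529193-43529225) and ETV5 (chr3:186052088-186052120), inside 1 coding exon of each gene. Exon bases outside these coding sequences also take counts and were not compared. The run is shown with 12 coding bases on either side, 5′ to 3′, with the shared bases in capitals.
ETV4: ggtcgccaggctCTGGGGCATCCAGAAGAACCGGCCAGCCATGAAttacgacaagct
ETV5: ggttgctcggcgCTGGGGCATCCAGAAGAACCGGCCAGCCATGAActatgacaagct
The run lies in the region that encodes the DNA-binding ETS domain. The longest runs shared by ETV1 were 17 bases with ETV4 and 18 bases with ETV5.

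Expressed per kilobase of annotated exon (RPKM, from the same scaled library sizes), ETV5 at 0.972 ± 0.0647 and ETV4 at 0.970 ± 0.164 were level in WT cells (SD, n = 3), and ETV1 was at 0.0282 ± 0.00747. The summed level of the 3 genes was 2.04, 2.01 and 1.86 RPKM in WT and 0.298, 0.254 and 0.240 RPKM in siSRSF2 libraries, a ratio of group means of 7.46. The makeup of that sum was also unequal. ETV5 made up 49.5% ± 5.95 in WT and 15.9% ± 4.28 in siSRSF2 libraries, ETV4 49.0% ± 5.98 and 68.3% ± 10.3, and ETV1 1.43% ± 0.370 and 15.8% ± 6.50. In siSRSF2 cells ETV5 and ETV1 stood at like levels (0.0412 ± 0.00749 and 0.0414 ± 0.0154 RPKM), below ETV4 at 0.182 ± 0.0406 RPKM. These levels divide by all annotated exons of a gene, which understates a gene that uses few of them.

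**Figure D2:**
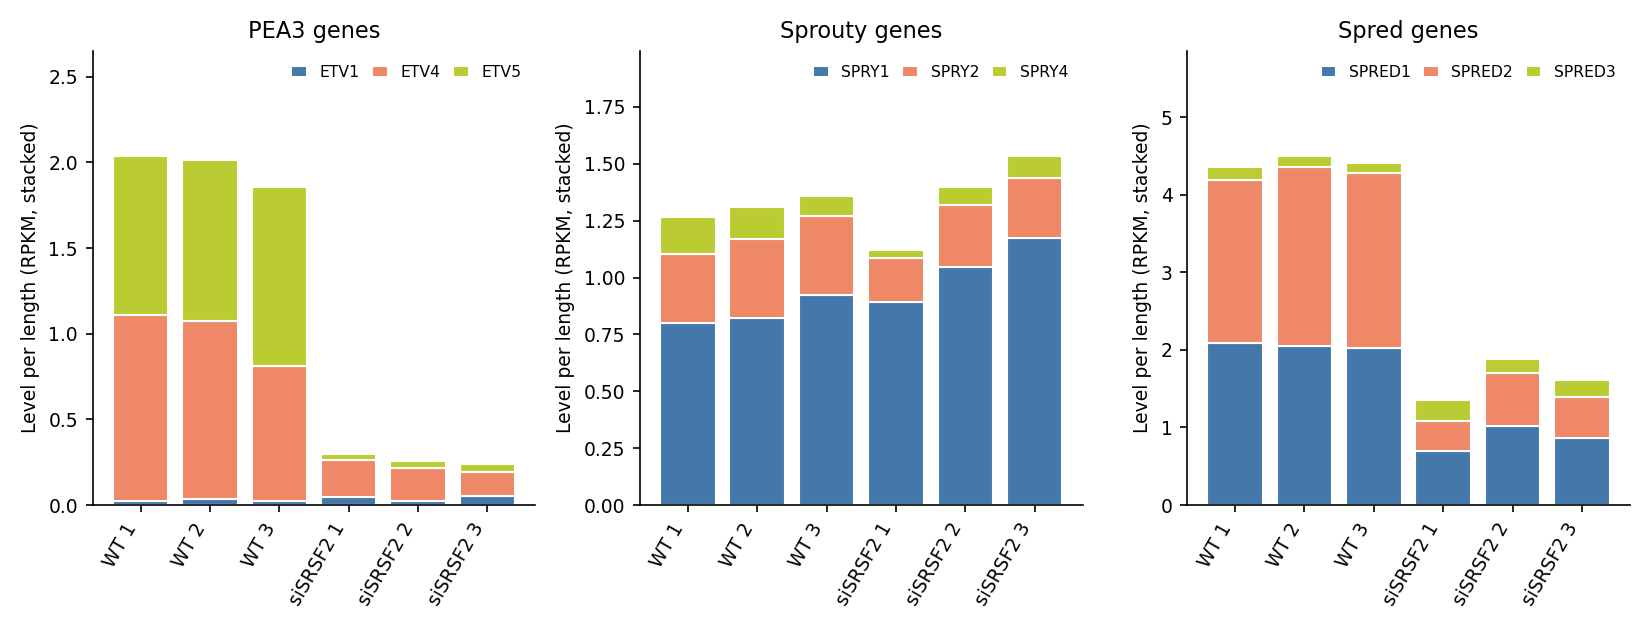
Level per length (RPKM, vertical axes from 0) of the PEA3, Sprouty and Spred genes, stacked by gene, in each of the 6 libraries. The PEA3 stacks stand at 1.86 RPKM or more in WT and 0.298 RPKM or less in siSRSF2 libraries, the Spred stacks at 4.36 RPKM or more and 1.89 RPKM or less, while the Sprouty stacks overlap between the groups.

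ETV5 and ETV4 each share exon bases with an annotated neighbour, and the effect on their counts was not tested. DGKG, a diacylglycerol kinase gene beside ETV5 on the same strand, shares 164 exon bases with it, which is 2.83% of the ETV5 exons. DGKG fell as well, its level being 2.89 ± 0.398 CPM in WT and 0.439 ± 0.199 CPM in siSRSF2 libraries (edgeR adjusted p = 1.5e-09, log2 fold change -2.71). The sources used here do not give the rule for reads in shared bases. The antisense gene ETV5-AS1 had a count of 4 in WT replicate 1 and 0 in the other 5 libraries. ETV4 shares 68 bases (1.89% of its exons) with DHX8 on the opposite strand, a helicase gene at 101 ± 2.24 and 103 ± 2.85 CPM for which edgeR gave an adjusted p of 0.523 (log2 fold change 0.04).

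SPRED2 (chr2:65310851-65432637, minus strand) had the lowest fold change among the feedback inhibitors. It was at 10.8, 11.9 and 11.6 CPM in WT and at 1.99, 3.53 and 2.68 CPM in siSRSF2 libraries. The groups were far apart, with siSRSF2 replicate 1 lowest of all, and the difference was 4.10-fold (log2 fold change -2.04, SE 0.139). Without siSRSF2 replicate 1 the log2 fold change was -1.87, and 0.490% of tested genes had a lower value than SPRED2.

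SPRED1 (chr15:38252326-38357249, plus strand), the gene mutated in Legius syndrome, was at 17.3, 17.0 and 16.7 CPM in WT and at 5.74, 8.38 and 7.16 CPM in siSRSF2 libraries. The WT libraries were close together and all above the siSRSF2 libraries, among which replicate 1 was again lowest. The difference was 2.37-fold (log2 fold change -1.24, SE 0.102).

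SPRED3 (chr19:38388421-38399587, plus strand), the family member that lacks a working KIT-binding domain, had counts of 46, 38 and 37 in WT and 43, 42 and 46 in the shallower siSRSF2 libraries. The corresponding levels were 0.965, 0.832 and 0.780 CPM against 1.58, 1.09 and 1.33 CPM, without overlap (log2 fold change 0.62, SE 0.261). Its call ended in 8 of 13 alternative analyses, among them DESeq2 and the analyses without WT replicate 1, 2 or 3 or siSRSF2 replicate 1 or 3, with log2 fold changes between 0.49 and 0.75 over all 13.

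Per length, SPRED2 (2.22 ± 0.109 RPKM) and SPRED1 (2.06 ± 0.0377) were the most abundant of the 10 mRNAs in WT cells. Their order rests on a gap little larger than these SDs. The Spred sum was 4.36, 4.50 and 4.41 RPKM in WT and 1.35, 1.89 and 1.61 RPKM in siSRSF2 libraries, a ratio of means of 2.74. SPRED2 made up 50.2% ± 1.76 of it in WT and 32.4% ± 3.89 in siSRSF2 libraries, SPRED1 46.5% ± 1.36 and 53.0% ± 1.33, and SPRED3 3.32% ± 0.408 and 14.6% ± 5.09. Coding identity within the family ran from 56.4% (SPRED1 and SPRED3) to 66.3% (SPRED1 and SPRED2), with no shared run above 16 bases.

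Sprouty genes had smaller differences in both directions. SPRY1 (chr4:123396795-123403760, plus strand) was at 3.17, 3.26 and 3.67 CPM in WT and at 3.53, 4.15 and 4.65 CPM in siSRSF2 libraries. The groups overlapped, as siSRSF2 replicate 1 lay below WT replicate 3 (log2 fold change 0.29, SE 0.148). SPRY1 was called higher in 3 alternative analyses, at log2 fold changes of 0.43 with scaling by library totals, 0.35 with a minimum mean of 1 CPM and 0.39 without siSRSF2 replicate 1.

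SPRY2 (chr13:80335976-80340951, minus strand) was at 0.923, 1.05 and 1.05 CPM in WT and at 0.589, 0.830 and 0.808 CPM in siSRSF2 libraries. The groups did not overlap, but with counts of 16 to 50 the SE of 0.280 was large beside the log2 fold change of -0.42.

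SPRY4 (chr5:142310427-142326455, minus strand) was at 0.965, 0.832 and 0.506 CPM in WT and at 0.221, 0.467 and 0.577 CPM in siSRSF2 libraries. The lowest WT library lay below the highest siSRSF2 library (log2 fold change -0.82, SE 0.377, counts of 6 to 46). It was called lower without WT replicate 3 (log2 fold change -1.06) and without siSRSF2 replicate 3 (-1.10). The SPRY4 intronic transcript entries had no count in any library.

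The Sprouty sum per length was 1.27, 1.31 and 1.36 RPKM in WT and 1.12, 1.40 and 1.54 RPKM in siSRSF2 libraries, so the groups overlapped. SPRY1 made up 64.7% ± 2.98 of it in WT and 76.9% ± 2.33 in siSRSF2 libraries, SPRY2 25.3% ± 1.22 and 18.0% ± 1.29, and SPRY4 9.95% ± 3.35 and 5.09% ± 1.58. SPRY1, at 1.04 ± 0.141 RPKM, was the most abundant of the 10 mRNAs in siSRSF2 cells, ahead of SPRED1 at 0.859 ± 0.160. That gap was little larger than either SD. In WT cells SPRY1 (0.849 ± 0.0669 RPKM) had stood behind SPRED2, SPRED1, ETV5 and ETV4, the last of which it differed from by less than the SD of ETV4. The remaining member of the family, SPRY3, was at 0.256 ± 0.00594 CPM in WT and 0.390 ± 0.202 CPM in siSRSF2 libraries (log2 fold change 0.64, SE 0.473, edgeR adjusted p = 0.26).

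PHLDA1 (chr12:76025447-76033932, minus strand) was at 5.52, 4.71 and 4.68 CPM in WT and at 2.28, 2.72 and 2.02 CPM in siSRSF2 libraries. All siSRSF2 libraries were below all WT libraries, a difference of 2.11-fold (log2 fold change -1.08, SE 0.155). Its exons overlap RP11-290L1.3 and RP11-290L1.2, which lie on the opposite strand, over 553 and 779 bases (6.85% and 9.65% of PHLDA1 exons). RP11-290L1.3, of which 97.2% is shared, fell by 1.29 on the log2 scale (SE 0.220, edgeR adjusted p = 1.36e-05). RP11-290L1.2, which lies wholly within the shared bases, was at 0.273, 0.306 and 0.148 CPM in WT and at 0, 0.259 and 0.173 CPM in siSRSF2 libraries, which overlapped (edgeR adjusted p = 0.421). Without the strand setting, reads in the shared part cannot be told apart. Of its paralogs, PHLDA2, an imprinted growth regulator, was at 18.6, 17.7 and 23.3 CPM in WT and fell to 8.65, 7.94 and 7.01 CPM in siSRSF2 libraries (edgeR adjusted p = 2.22e-10). The p53 target PHLDA3 was at 10.6 ± 1.67 and 10.8 ± 0.493 CPM (log2 fold change 0.03, edgeR adjusted p = 0.854).

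**Figure D3:**
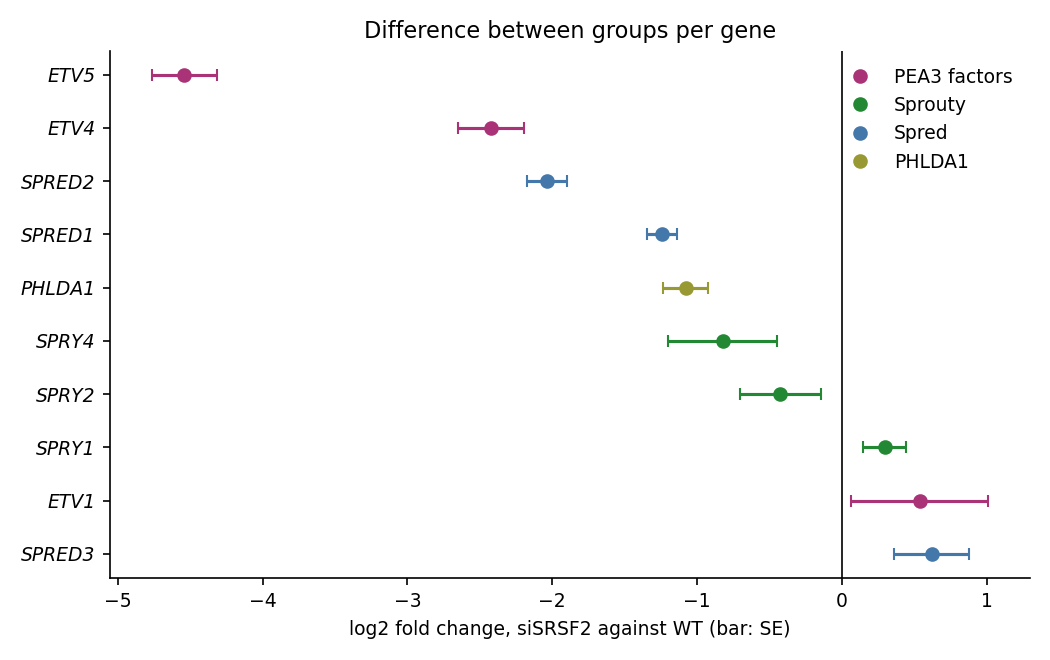
Log2 fold change of siSRSF2 against WT for the 10 genes (horizontal axis), ordered from lowest to highest and coloured by family, with SEs from the edgeR fit as bars. ETV5 stands at -4.54, and SPRY1, ETV1 and SPRED3 lie above 0 at 0.29, 0.54 and 0.62.

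The 250 bases before their RefSeq start sites (GRCh38.p14) were searched on both strands. The motifs were the CIC octamers TGAATGAA, TGAATGGA, TCAATGAA and TCAATGGA, the ETS site CCGGAAGT and the AP-1 site TGANTCA. The promoter table held 18 windows of 8 members, and ETV4 and ETV5 have none in it. A CIC octamer occurred in 2 of the 18 windows, 1 each of ETV1 and SPRED3, where 3.17% of all 34943 windows hold one. The ETS site occurred in none of the 18 (3.39% of all windows), and the AP-1 site in 1, of SPRED3 (6.59%). No matches of different motifs overlapped, and some windows of ETV1 share bases. Parts outside annotated exons are printed on the gene's strand, 5′ to 3′, with CIC octamers in capitals: the ETV1 and SPRED3 windows because they hold the octamer, and 1 of the 2 SPRED2 windows because SPRED2 had the lowest fold change among the 8 members. They lie at chr7:13991426-13991675 (ETV1, minus strand), chr19:38389541-38389611 (SPRED3, plus strand) and chr2:65432638-65432849 (SPRED2, minus strand).
ETV1: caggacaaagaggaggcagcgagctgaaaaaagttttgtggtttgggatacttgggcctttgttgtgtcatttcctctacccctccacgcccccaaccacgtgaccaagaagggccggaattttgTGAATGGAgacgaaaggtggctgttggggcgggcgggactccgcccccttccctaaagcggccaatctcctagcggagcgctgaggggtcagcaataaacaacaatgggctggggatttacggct
SPRED3: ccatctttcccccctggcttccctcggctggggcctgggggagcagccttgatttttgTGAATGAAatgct
SPRED2: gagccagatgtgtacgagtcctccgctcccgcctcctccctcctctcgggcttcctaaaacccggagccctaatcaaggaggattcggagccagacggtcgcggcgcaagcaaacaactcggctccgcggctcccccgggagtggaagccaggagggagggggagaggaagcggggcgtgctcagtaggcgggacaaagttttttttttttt
The octamers begin 125 bases before the start site of that ETV1 window and 192 bases before that of the SPRED3 window. Both genes also have windows at other start sites, without an octamer. In 13 of the 18 windows, the 50 bases after the start site were in a GENCODE transcript of the gene. A match is a description of these letters, and a window without one says only that they are not in those 250 bases.

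Other genes that report ERK output were compared as a list. This list and those below were drawn up with earlier results of these data known, so their shares are a description. Of 12, 11 were tested, 7 fell and 2 rose (63.6% and 18.2%, beside 29.0% and 30.1% of all genes), with a median log2 fold change of -0.64, beside 0.02 over all genes. CCND1, encoding cyclin D1, was at 179 ± 1.92 CPM in WT and fell to 37.5 ± 3.15 CPM (edgeR adjusted p = 1.56e-21). The receptor gene EPHA2 was at 37.7, 39.8 and 35.9 CPM in WT and at 6.22, 5.58 and 7.07 CPM in siSRSF2 libraries (edgeR adjusted p = 4.06e-19), a difference of 6.02-fold. FOSL1, encoding the AP-1 subunit FRA1, was 4.82-fold lower (edgeR adjusted p = 1.87e-16) and the ERK phosphatase gene DUSP4 5.35-fold lower (6.26e-15). The immediate early gene EGR1 fell by 2.21, IER3 by 0.64 and MYC by 0.62 on the log2 scale (edgeR adjusted p = 1.82e-07, 1.89e-05 and 1.48e-12). FOS rose from 2.35 ± 0.680 to 9.66 ± 0.769 CPM (edgeR adjusted p = 7.02e-11) and ERRFI1, which encodes an inhibitor of EGFR, from 22.4 ± 2.15 to 34.0 ± 1.93 CPM (4.12e-08). The phosphatase genes DUSP5 (1.08 ± 0.235 and 0.977 ± 0.120 CPM) and DUSP6 (0.424 ± 0.146 and 0.456 ± 0.0816 CPM) did not pass (edgeR adjusted p = 0.661 and 0.872), and EPHA4 had too few counts to test.

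Of the 25 other ETS genes, 15 had enough counts to test, and 8 fell and 2 rose (53.3% and 13.3%, beside 29.0% and 30.1% of all genes), with a median log2 fold change of -0.20. The log2 fold changes of the 8 lay between -0.42 (ELF4) and -0.20 (GABPA, whose call ended with scaling by library totals). The repressor gene ETV3 fell from 38.8 ± 1.82 to 29.1 ± 0.360 CPM (edgeR adjusted p = 1e-06) and ELF4 from 33.2 ± 0.251 to 24.8 ± 1.10 CPM (1.54e-06). ELF3, an epithelial ETS factor, rose 6.13-fold, from 8.37 ± 1.47 to 51.4 ± 1.46 CPM (edgeR adjusted p = 2.56e-16), and ELF2 1.51-fold (5.13e-10).

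Genes from the receptors to ERK went both ways. All 25 were tested, with 11 higher and 11 lower (44.0% each, beside 30.1% and 29.0% of all genes) and a median log2 fold change of 0.07. EGFR fell from 218 ± 1.75 to 107 ± 2.25 CPM (log2 fold change -1.03, edgeR adjusted p = 9.83e-17), the adaptor phosphatase gene PTPN11 from 866 ± 18.9 to 508 ± 2.95 CPM (1.48e-14) and HRAS from 65.8 ± 2.24 to 36.0 ± 2.14 CPM (4.28e-13). SOS1, encoding a RAS exchange factor, rose 1.98-fold, from 110 ± 0.983 to 218 ± 3.32 CPM (edgeR adjusted p = 1.82e-16). The largest fold changes of the list were rises. ERBB3 rose 6.39-fold, from 0.625 ± 0.209 to 4.02 ± 0.218 CPM (edgeR adjusted p = 5.23e-11). The ERK gene MAPK3 rose 2.94-fold, from 3.80 ± 0.564 to 11.2 ± 0.276 CPM (8.22e-12).

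Regulators and partners of the members were called near the rate of all genes. Of 17 tested, 5 were higher and 6 lower (29.4% and 35.3%). CIC, the repressor of PEA3 genes, rose from 27.3 ± 1.15 to 41.6 ± 2.87 CPM (log2 fold change 0.61, edgeR adjusted p = 3.86e-09). Its partner genes moved in different directions, ATXN1 1.61-fold higher (edgeR adjusted p = 8.19e-11) and ATXN1L 1.31-fold lower (5.66e-07). MED25, a Mediator subunit bound by PEA3 factors, rose 1.83-fold (edgeR adjusted p = 3.35e-08). DET1, an adaptor in the degradation of PEA3 proteins, rose 1.22-fold (edgeR adjusted p = 0.0101), a call that ended with DESeq2 (0.0713), with no filter (0.088) and without WT replicate 1 (0.0552) or siSRSF2 replicate 2 (0.0646). Among partners of Sprouty proteins, the ubiquitin ligase gene NEDD4 fell 2.65-fold, from 146, 156 and 149 CPM in WT to 56.8, 56.6 and 56.3 CPM in siSRSF2 libraries (edgeR adjusted p = 9.08e-19), and CAV1, encoding caveolin-1, 1.61-fold (6.24e-11). NF1, which encodes the Spred partner neurofibromin, was 1.10-fold higher (edgeR adjusted p = 0.0145), a call that ended with DESeq2 (0.102), with no filter (0.424) and without WT replicate 1 (0.101) or 3 (0.0856).

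Of 8 genes reported elsewhere as PEA3 targets, 6 were tested, and 3 rose and 3 fell, where 30.1% and 29.0% of all genes did. ICAM1, an adhesion receptor gene, fell from 25.6 ± 0.0859 to 13.1 ± 0.219 CPM (edgeR adjusted p = 4.91e-12). The collagenase gene MMP1 fell from 0.823 ± 0.252 to 0.285 ± 0.274 CPM (0.00727), a call that ended without WT replicate 1 (0.0505), and PLAU, the urokinase gene, fell 1.21-fold (0.0187), a call that ended with scaling by library totals (0.227) and without WT replicate 3 (0.0962) or siSRSF2 replicate 1 (0.0553). The gelatinase gene MMP9 rose from 0.278 ± 0.105 to 0.790 ± 0.199 CPM (edgeR adjusted p = 0.00222). MMP14 (1.41-fold higher, 0.0355) and the chemokine receptor gene CXCR4 (1.29-fold higher, 0.0133) lost their calls with DESeq2 (0.142 and 0.0768), with no filter (0.124 and 0.085) and without WT replicate 2 (0.110 and 0.0549), and MMP14 also without WT replicate 3 (0.119) or siSRSF2 replicate 1 (0.188).

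**Figure D4:**
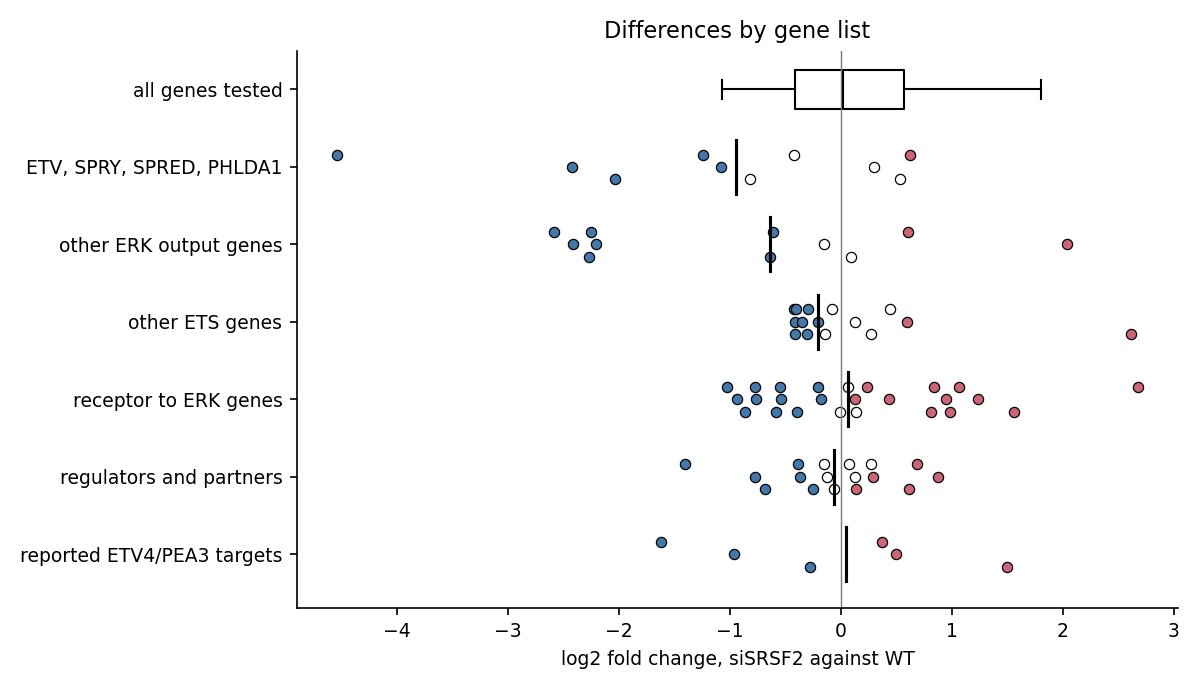
Log2 fold change of siSRSF2 against WT (horizontal axis) of each tested gene in 6 lists. Points are genes, filled blue or red where the edgeR adjusted p was under 0.05 and open otherwise, black ticks are medians, and the box at the top holds all tested genes (median line, quartiles, whiskers at percentiles 5 and 95). The median of the ERK output genes lies at -0.64 and that of the receptor-to-ERK genes at 0.07.

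The genes whose levels over the 6 libraries were nearest to a member's were found by the distance of log2 CPM profiles centred on the WT mean. Candidates were genes of at least 5 CPM in the higher group, with the other members left out. Nearest to ETV4 were DUSP4, NT5E and FOSL1, at distances of 0.450, 0.468 and 0.508 log2 units. DUSP4 and FOSL1 are also in the list of ERK output genes, and NT5E encodes an ecto-nucleotidase. The genes nearest to ETV5 were CTD-2033D15.1, CTD-2033D15.3 and the adhesion gene AMIGO2, at 0.821, 0.847 and 1.05. Nearest to SPRY4 were RP11-186N15.3, SLC38A7 and SFXN4 (0.639, 0.750 and 0.758), and nearest to PHLDA1 were MT-ND6, SLC25A25 and MED12L (0.140, 0.224 and 0.229). Each distance covers the difference between the groups as well as that among libraries, and carries no test.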

How the data were processed

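Raw counts for each gene name were deposited by the authors, and the submitters' processing notes name HISAT2 2.0.5 and featureCounts 1.5.0-p3 with the mouse build mm10. The deposited table holds human names, and all 10 members have the exon span of GENCODE release 29 (GRCh38), used here. The sources used here do not give the strand setting or the handling of ambiguous reads. RNA was extracted with TRI Reagent and libraries made with a SMARTER kit, per the labels' protocols. The length column, in the deposited table's header, is merged exon length. Groups came from sample titles. Within-group replicate pairs differed by more than sampling noise (chi-square per gene 3.83 to 8.75), so none was merged.

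The fit used edgeR 4.0.16 (R 4.3.3): filterByExpr (minimum count 10), TMM, robust quasi-likelihood F test of siSRSF2 against WT on group alone, Benjamini-Hochberg over 23689 genes at 0.05. SEs derive from the fold change and its F statistic. The filter, scaling and test were tested on simulated data in which most genes were equal between groups. Those data cannot test the scaling where 59.1% of genes are called. RPKM is CPM per 1000 bases. Sequences came from RefSeq (GRCh38.p14) and GENCODE, aligned with Biopython 1.88.

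Members and lists were chosen with earlier results of these data known. Named genes were all members, their relatives and overlapping genes, and up to 4 genes per list with the smallest p, or up to 2 where under 25% of a list passed. The 3 nearest genes to ETV4, ETV5, SPRY4 and PHLDA1 were added. EGR1, IER3, MYC, FOS, GABPA, ERRFI1, DUSP5, DUSP6, EPHA4, ATXN1L, MED25, DET1, NF1, PLAU and MMP14 were named after their values were seen. So were ERBB3 and MAPK3, and ETS1, BRAF, SHC1, RASA1, RFWD2 and DDB1, whose signs turned under alternatives. Alternatives were DESeq2 1.42.0, RLE factors, library totals, no filter, a mean CPM of at least 1, the replicate number as a block and each library left out. Halved counts were added after seeing the data.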

Additional observations from a re-analysis of the deposited data

How the results depend on the processing

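ETV4, ETV5, SPRED1, SPRED2 and PHLDA1 had log2 fold changes under the 13 alternatives, which reuse the libraries that chose them and lend no support, between -2.56 and -2.26, -4.71 and -4.41, -1.39 and -1.11, -2.28 and -1.87, and -1.22 and -0.95. The count of members called higher, 1 in the main analysis, was 0 with DESeq2, with no filter and with the replicate block, 2 with library totals and with a mean CPM of at least 1, and between 0 and 1 with a library left out. Higher calls among regulators and partners numbered 3 with DESeq2, 8 with library totals, 3 with no filter, and between 3 and 6 with a library left out. Higher calls among reported PEA3 targets numbered 1 with DESeq2, 1 with no filter, and between 1 and 3 with a library left out. Scaling by library totals moved the median of all genes by 0.13 on the log2 scale, to 8560 higher and 5492 lower calls in place of 7129 and 6862. Signs turned only in genes that did not pass: with library totals ETS1 (0.0503), BRAF (0.121), RFWD2 (0.0632) and RASA1 (0.000559), with no filter SHC1 (-0.00993), DDB1 (-0.00279), PHLDA3 (-0.0501) and DHX8 (-0.0386), with a mean CPM of at least 1 BRAF (0.0422), with halved counts BRAF (0.0142), and with DESeq2 PHLDA3 (-0.00163). With a library left out, DUSP5 ran from -0.297 to 0.019, DUSP6 from -0.164 to 0.307, BRAF from -0.0291 to 0.00591 and PHLDA3 from -0.0467 to 0.156. The cause was not tested. Replicate numbers did not pair the libraries (correlations of same-numbered deviations 0.0133, -0.0472 and -0.0457). With the replicate block, 6927 genes were called higher and 6770 lower. Low counts limit ETV1, SPRY2, SPRY4 and SPRED3. In siSRSF2 libraries they also limit ETV5 (counts of 6, 8 and 10) and ETV4 (21, 27 and 17).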
